A study of Mus musculus with 7 samples.

Results

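Immediate early genes are transcribed within minutes of a stimulus without the need for new protein. They are switched on when mitogen-activated protein (MAP) kinases activate factors that already sit at their promoters, and most of their mRNAs are short-lived. In liver they are known for their response to partial hepatectomy, injury, cytokines and the handling of tissue. Here 10 of them were followed by gene name in a table of 27810 mouse genes: Fos, Fosb, Jun, Junb, Egr1, Ier2, Ier3, Zfp36, Atf3 and Dusp1. All 10 were listed, each once.

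Bulk RNA sequencing gave 7 liver libraries from wild-type male C57BL/6j mice placed at 5 weeks of age on a WD diet with 40% fat, 20% fructose and 2% cholesterol, which the labels describe as inducing NASH, a fatty liver disease with inflammation. After 32 weeks of diet every mouse was injected 1 time in the tail vein, and livers were collected after 40 weeks. The MSC group (replicates 0, 1 and 2) received mesenchymal stromal cells from human umbilical cord (hUC-MSCs). The vehicle group (replicates 1, 3 and 4) received PBS. A further vehicle library, replicate 6, is labelled Cancer and was treated as a group of 1; what the word refers to is not explained. No library came from mice on another diet or from uninjected mice. The sources used here do not give the time of day or the delay between death and freezing, to which these genes are sensitive. Whether the libraries are separate animals is not stated, so p-values measure the spread between libraries.

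Expression is in FPKM, which divides the fragments of a gene by its length and by the library's mapped fragments, so levels can be compared between genes. The depth is unknown, because the table holds no read counts. The hepatocyte markers (8 of 8 above 0 in every library) summed to between 21360 and 38880 FPKM, as the liver label requires. The mitochondrial genome supplied 36.4% of all FPKM in MSC replicate 1 and from 16.5% to 23.3% in each other library. In bulk tissue, a lower value can mean fewer cells of a type or less RNA per cell, and these cannot be told apart.

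For 8 of the 10 genes, all but Egr1 and Ier2, a promoter was taken from RefSeq on GRCm38.p6. The 250 bases before the transcription start were searched on both strands for the cyclic AMP response element (CRE, TGACGTCA), its shorter core (TGACG), the AP-1 site (TGAGTCA, whose other strand reads TGACTCA), the TATA box (TATAAA) and the CArG box, the core of the serum response element. The 4 windows printed are Ier3, the member with the lowest p in the comparison of the Cancer-labelled library, and those with a match to the rarer motifs: Fos (TATA box and CRE cores), Zfp36 (CArG box) and Dusp1 (full CRE, which contains 2 of its 3 core matches). Capitals mark the matches.
Fos, chr12:85473640-85473889, plus strand: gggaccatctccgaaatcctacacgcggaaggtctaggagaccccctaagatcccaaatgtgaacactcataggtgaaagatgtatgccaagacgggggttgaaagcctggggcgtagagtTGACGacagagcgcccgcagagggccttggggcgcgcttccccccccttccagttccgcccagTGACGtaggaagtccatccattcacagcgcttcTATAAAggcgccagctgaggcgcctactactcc
Zfp36, chr7:28379229-28379478, minus strand: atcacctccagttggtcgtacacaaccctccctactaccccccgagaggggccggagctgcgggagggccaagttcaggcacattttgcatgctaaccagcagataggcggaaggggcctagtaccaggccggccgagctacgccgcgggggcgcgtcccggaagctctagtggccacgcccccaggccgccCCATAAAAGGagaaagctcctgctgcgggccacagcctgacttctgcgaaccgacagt
Dusp1, chr17:26508473-26508722, minus strand: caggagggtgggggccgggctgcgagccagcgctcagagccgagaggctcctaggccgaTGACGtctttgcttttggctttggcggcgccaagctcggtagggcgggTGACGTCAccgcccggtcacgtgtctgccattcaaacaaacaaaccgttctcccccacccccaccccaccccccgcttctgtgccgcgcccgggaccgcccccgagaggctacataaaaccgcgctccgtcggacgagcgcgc
Ier3, chr17:35821463-35821712, plus strand: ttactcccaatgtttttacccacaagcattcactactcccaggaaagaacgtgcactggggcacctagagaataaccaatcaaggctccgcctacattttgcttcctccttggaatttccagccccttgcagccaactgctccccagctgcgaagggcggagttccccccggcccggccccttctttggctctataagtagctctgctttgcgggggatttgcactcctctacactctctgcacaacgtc

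The CRE core was found in 5 of the 8 windows (Fos, Fosb, Junb, Atf3 and Dusp1) and in 17.8% of the 32851 mouse promoters of the same length. The full CRE was in Dusp1 and in 1.55% of promoters. The CArG box was in Zfp36 and in 1.47%, and the TATA box was in Fos and in 12.4%. No window held the AP-1 site, which 4.46% of promoters hold. These are matches of letters, and the windows end at the start site. Bases farther upstream, and the promoters of Egr1 and Ier2, were not searched, so a motif not found here can still be present there. The Zfp36, Dusp1 and Atf3 windows lie inside the longer gene models of the deposited table, which begin farther upstream.

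Fos and Fosb encode the Fos proteins, which pair with Jun proteins through a leucine zipper to form the transcription factor AP-1. Fos (ENSMUSG00000021250, chr12:85473890-85477273 on GRCm38) measured 1.78, 0.441 and 1.86 FPKM in MSC replicates 0, 1 and 2. In vehicle replicates 1, 3 and 4 it measured 0.743, 0.540 and 0.798 FPKM. The Cancer-labelled library held 3.45 FPKM. MSC replicates 0 and 2 lay above all 3 vehicle libraries and replicate 1 below them, so the groups overlapped, and the Cancer-labelled library was the highest of the 7. Fosb (ENSMUSG00000003545, chr7:19302696-19310051) was nearly absent, at 0.0579, 0.0193 and 0.00829 FPKM in the MSC libraries. It was at 0.0519, 0 and 0.00834 FPKM in the vehicle libraries and at 0.407 FPKM in the Cancer-labelled library. That library again stood above the other 6, at a level still under 1 FPKM.

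Jun and Junb encode the Jun partners of AP-1, of which JunB is the weaker activator and can restrain c-Jun. Jun (ENSMUSG00000052684, chr4:95049034-95052222) measured 32.97, 14.8 and 7.70 FPKM in the MSC libraries, 16.1, 12.5 and 9.37 FPKM in the vehicle libraries and 23.3 FPKM in the Cancer-labelled library. MSC replicate 0 was the highest of all 7 and MSC replicate 2 the lowest. Junb (ENSMUSG00000052837, chr8:84976910-84978718) measured 16.1, 11.8 and 24.9 FPKM in the MSC libraries, 18.2, 10.9 and 8.52 FPKM in the vehicle libraries and 16.5 FPKM in the Cancer-labelled library. For Junb the order within the MSC group was different, with replicate 2 the highest of all 7 libraries, and the Cancer-labelled library lay inside the vehicle range. The ratio of Jun to Junb within a library, which library scaling cannot change, was 2.04, 1.25 and 0.309 in the MSC libraries, 0.885, 1.15 and 1.10 in the vehicle libraries and 1.41 in the Cancer-labelled library.

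Atf3 encodes a leucine zipper factor of the stress response that often represses its targets. It (ENSMUSG00000026628, chr1:191170296-191218039) measured 7.65, 3.17 and 1.39 FPKM in the MSC libraries, 2.45, 4.62 and 2.06 FPKM in the vehicle libraries and 5.53 FPKM in the Cancer-labelled library. As with Jun, the 2 extremes of the 7 libraries were both in the MSC group. Egr1 encodes a zinc finger transcription factor that is a classical readout of MAP kinase signalling. Egr1 (ENSMUSG00000038418, chr18:34859823-34864984) measured 14.4, 2.95 and 32.5 FPKM in the MSC libraries, 7.03, 5.30 and 1.62 FPKM in the vehicle libraries and 11.6 FPKM in the Cancer-labelled library. It had the widest range of the 10 genes apart from the scarcely detected Fosb, with its peak in MSC replicate 2. The ratio of Egr1 to Atf3 was 23.4 in that library, between 0.929 and 1.88 in the other MSC libraries and between 0.787 and 2.87 in the vehicle libraries.

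Ier2 encodes a short-lived nuclear protein, and Ier3 a stress-induced regulator of cell survival and of ERK signalling. Ier2 (ENSMUSG00000053560, chr8:84661331-84662854) measured 8.94, 6.14 and 11.3 FPKM in the MSC libraries, 6.16, 7.47 and 3.93 FPKM in the vehicle libraries and 13.5 FPKM in the Cancer-labelled library. Ier3 (ENSMUSG00000003541, chr17:35821684-35822923) measured 2.53, 1.39 and 1.97 FPKM in the MSC libraries, 1.64, 1.62 and 0.659 FPKM in the vehicle libraries and 6.52 FPKM in the Cancer-labelled library. MSC and vehicle libraries overlapped for both genes, and the Cancer-labelled library was above all 6.

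Zfp36 and Dusp1 switch the response off. Zfp36 encodes tristetraprolin, which binds AU-rich elements and promotes the decay of cytokine mRNAs, and Dusp1 a phosphatase that inactivates the MAP kinases p38 and JNK. Zfp36 (ENSMUSG00000044786, chr7:28376784-28380253) measured 22.8, 29.0 and 22.7 FPKM in the MSC libraries, 24.3, 15.2 and 10.02 FPKM in the vehicle libraries and 24.6 FPKM in the Cancer-labelled library. Vehicle replicates 3 and 4 lay below every MSC library, and vehicle replicate 1 lay among them. Dusp1 (ENSMUSG00000024190, chr17:26505590-26562128) measured 14.4, 3.80 and 3.77 FPKM in the MSC libraries, 6.35, 4.27 and 3.38 FPKM in the vehicle libraries and 12.7 FPKM in the Cancer-labelled library. MSC replicate 0 and the Cancer-labelled library were far above the other 5. The deposited gene models overlap others on the opposite strand: Jun overlaps Junos (at most 0.270 FPKM), Zfp36 overlaps Gm44710 (at most 0.323 FPKM), and Dusp1 overlaps Gm8225 (at most 1.5 FPKM) and 640 bases of Ergic1 (4.66 to 6.25 FPKM). Whether counting used strand is not stated in the labels, so reads in these overlaps cannot be told apart.

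**Figure D1:**
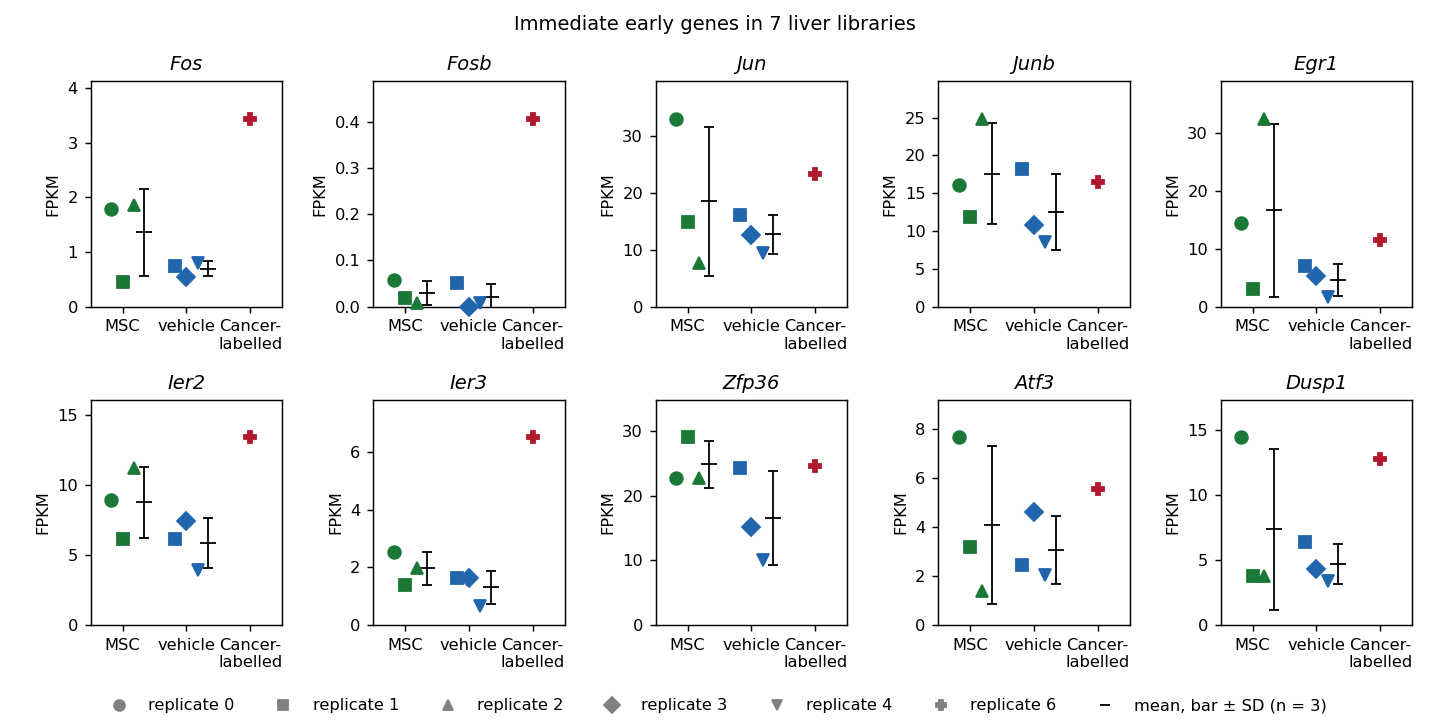
FPKM (y axis, linear, from 0) of each of the 10 genes in each library, by group (x axis). Symbols mark the replicate number and bars the mean ± SD of 3 libraries; the Cancer-labelled library is 1 point. It is the highest point for Fos, Fosb, Ier2 and Ier3, and MSC and vehicle points overlap in every panel.

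The first comparison set livers of MSC-injected mice against those of vehicle-injected mice. All 10 genes had a higher mean in the MSC group, and none passed the test: in limma on log2(FPKM + 1), 0 of the 8 genes that could be tested had an adjusted p under 0.05 (Benjamini-Hochberg over 10534 genes). The share of all genes tested that passed was 0.019%, 2 genes, with 0.00949% higher and 0.00949% lower. Fos and Fosb did not reach 1 FPKM in 3 of the 6 libraries and were not tested. At an unadjusted p under 0.05 the count was also 0 of 8, against 5.59% of all genes tested. No member had groups that did not overlap, where 10% of all genes tested did (2.17% with the MSC libraries above and 7.84% with them below). A positive difference was found for 39.9% of all genes tested.

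The largest difference was that of Egr1, with 16.6 ± 14.9 FPKM in MSC and 4.65 ± 2.76 in vehicle libraries (SD, n = 3 each), a log2 difference of 1.31 ± 0.72 (SE) with an adjusted p of 0.995 in limma. Its SD in the MSC group was nearly as large as the mean. Zfp36 had the lowest adjusted p of the 10, 0.911 in limma, with 24.8 ± 3.63 against 16.5 ± 7.23 FPKM (SD, n = 3 each) and a log2 difference of 0.64 ± 0.29. For Ier2 the log2 difference was 0.51 ± 0.26, for Junb 0.46 ± 0.32 and for Ier3 0.38 ± 0.24 (SE). Jun (0.32 ± 0.44), Dusp1 (0.35 ± 0.44) and Atf3 (0.18 ± 0.44) had standard errors larger than their differences. Leaving out vehicle replicate 4 gave 0.34 for Zfp36, 0.29 for Ier2, 0.24 for Junb and 0.15 for Ier3, and leaving out MSC replicate 2 gave 0.20 for Junb and 0.33 for Ier2. Junb was at 0.75 without vehicle replicate 1 and at 0.70 without MSC replicate 1. The untested Fos had a difference of 0.42 and Fosb of 0.01. The exact two-sided permutation test of single genes gave p from 0.3 to 0.8, where 3 against 3 libraries allow no value below 0.1.

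The median log2 difference of the 10 genes was 0.40, beside -0.05 for all genes tested. It was 0.25 without MSC replicate 0 and 0.21 without vehicle replicate 4, and 0.09 when the Cancer-labelled library was counted as a 4th vehicle sample. Without MSC replicate 0, Jun, Atf3, Dusp1 and Fosb turned negative (-0.19, -0.30, -0.21 and -0.01) and 6 of the 10 genes kept a positive difference. For Egr1, leaving out MSC replicate 1 gave a difference of 2.16, leaving out MSC replicate 2 gave 0.61 and leaving out vehicle replicate 4 gave 0.83.

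**Figure D2:**
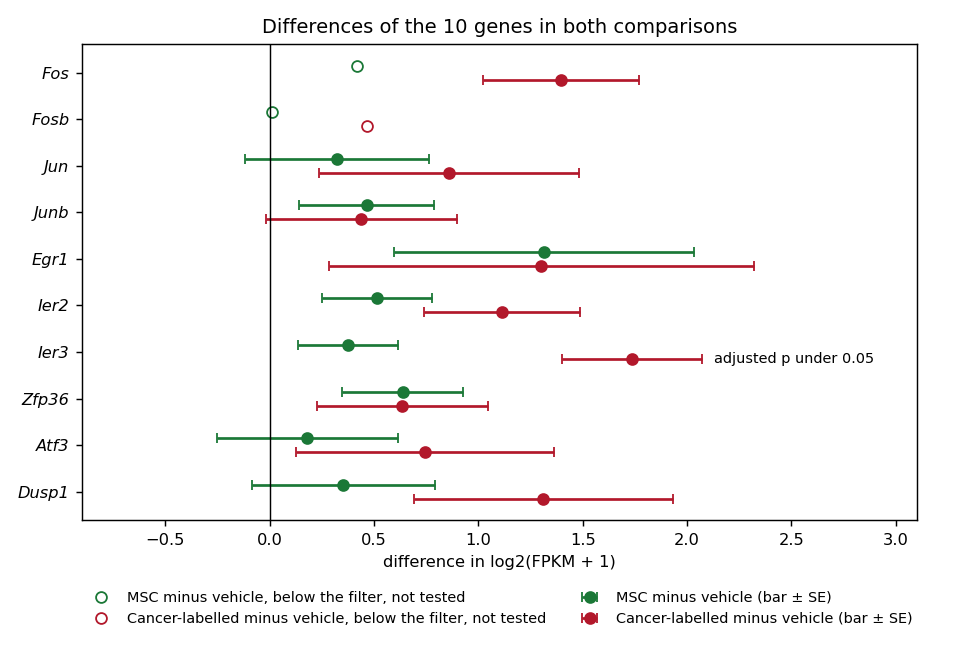
Difference in log2(FPKM + 1) (x axis) of each gene (y axis) for MSC minus vehicle (green) and for the Cancer-labelled library minus vehicle (red). Bars are ± SE from limma, and open circles are genes below the filter on low values, which were not tested. Only Ier3 in the Cancer-labelled library has an adjusted p under 0.05, with a difference of 1.74, and it loses the call (adjusted p = 0.0975 in limma) when the filter leaves that library out. The 2 comparisons share the vehicle libraries.

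Livers of 1 group differed more from each other in these genes than in most genes of like level. The SD of log2(FPKM + 1) was compared with that of the 200 tested genes nearest in mean, for the 8 tested members. Within the MSC group, Egr1 (SD 1.56) exceeded 100% of its neighbours, Atf3 (0.93) exceeded 99.5%, and Jun (0.99) and Dusp1 (0.97) exceeded 99%. The percentiles there were lower for Junb (90.5), Ier2 (84) and Ier3 (61.5). Zfp36 had the lowest, 37, with an SD of 0.20. Within the vehicle group the percentiles ran from 80.5 for Jun to 99 for Egr1, with Zfp36 at 92.

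The spread was not shared by all members. In MSC replicate 0, Jun was 1.35, Dusp1 1.48 and Atf3 1.15 above the vehicle mean on the log2 scale. In MSC replicate 2 those 3 genes were at -0.62, -0.21 and -0.71, while Egr1 was at 2.72, Junb at 1.00 and Ier2 at 0.87. MSC replicate 1 lay close to the vehicle mean for most members (median 0.04), apart from Zfp36 at 0.86. Among the 8 tested members, replicate 2 was the highest MSC library for 3 (37.5%), a position it held for 11.9% of all genes tested. MSC replicate 0 was the highest for 4 of 8 (50%), beside 59.1% of all genes tested.

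Markers of other liver cells also differed between these libraries. The 8 sinusoidal endothelial markers summed to 53.5, 8.40 and 34.2 FPKM in MSC replicates 0, 1 and 2 and to between 13.6 and 39.8 FPKM in the vehicle libraries. The 8 Kupffer cell and macrophage markers summed to 163, 40.7 and 125 FPKM and to between 69.9 and 189 FPKM. The 8 neutrophil markers summed to 42.2, 4.26 and 14.7 FPKM and to between 10.97 and 26.8 FPKM, with at most 3 of 8 markers at 0 in a library. For these 3 sets MSC replicate 0 held the most in its group and replicate 1 the least. Stellate cell and myofibroblast markers (28.8, 18.8 and 11.1 FPKM), bile duct markers (144, 34.4 and 31.2), T and NK cell markers (4.25, 1.34 and 0.642) and red cell transcripts (224, 126 and 105) were also highest in replicate 0 but lowest in replicate 2. Spp1 made up most of each bile duct sum, at 139.2, 31.4 and 28.65 FPKM. B and plasma cell markers summed to 5.31, 2.00 and 2.46 FPKM. The part of these cells in the values of the 10 genes was not tested.

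Vehicle replicate 4 was the low end of the vehicle group. It was the lowest of the 3 vehicle libraries for 8 of the 10 genes, a position it held for 41.1% of the genes tested in the 7-library comparison, and the lowest of all 7 libraries for 6 genes, against 16.8%. Its median difference from the vehicle mean was -0.40 on the log2 scale over the 10 genes, against 0.29 for vehicle replicate 1 and -0.01 for replicate 3. Its hepatocyte markers had the lowest sum of the 7 libraries, 21360 FPKM, of which Alb was 12350 FPKM. It was nonetheless the highest vehicle library for 3 of the 8 hepatocyte markers, Fgb, Serpina1a and Ass1. Its stellate (14.8 FPKM), bile duct (47.9 FPKM, of which Spp1 45.1 FPKM) and T and NK cell markers (1.22 FPKM) had the lowest sums of the vehicle group. Its macrophage markers had the highest sum of the 7, 189 FPKM, and its neutrophil markers the highest of the vehicle group, 26.8 FPKM. Their part in the low values of the 10 genes was not tested.

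**Figure D3:**
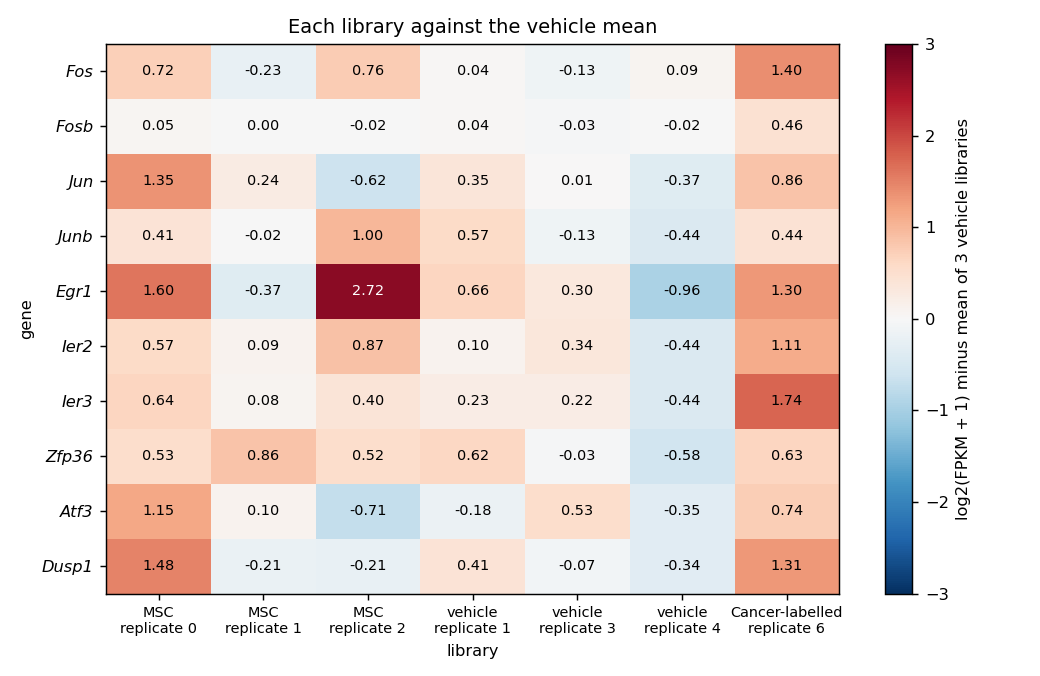
Each cell gives log2(FPKM + 1) of a gene (rows) in a library (columns) minus the mean of the 3 vehicle libraries; red is higher and blue lower. Jun, Atf3 and Dusp1 are red in MSC replicate 0 and blue in replicate 2, Egr1 reaches 2.72 in replicate 2, and vehicle replicate 4 is below the vehicle mean in all rows but Fos.

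The second comparison set the Cancer-labelled vehicle library against the other 3 vehicle libraries. Ier3 had the lowest p of the 10 genes, at 6.52 FPKM against 1.31 ± 0.562 (SD, n = 3), 4.98 times the vehicle mean and 3.97 times the highest vehicle library. Its log2 difference was 1.74 ± 0.33 (SE), with an adjusted p of 0.0261 in limma over 12265 genes, and it was the 1 member called of 9 tested. Of all genes tested, 3.98% were called higher and 0.188% lower. Those shares are partly built in, because a gene could enter the test through the Cancer-labelled library, alone or as 1 of 3 libraries. That let in 1731 genes, which held 367 of the 511 calls. With a filter on the other 6 libraries, an alternative chosen after seeing the data, 17 of 10534 genes were called, 15 higher and 2 lower, and Ier3 was not among them (adjusted p = 0.0975 in limma). With 1 library in the group, the spread came from the other 6 and the lone library was assumed to vary as they do, so the difference has no replicate check. The Ier3 call was also lost without vehicle replicate 4 (adjusted p = 0.0546 in limma), at a pseudocount of 0.1 (0.153), without the filter on low values (0.0629), with libraries centred on their medians (0.0502) and with quantile normalization (0.0578), and it had an adjusted p from 0.00496 to 0.0480 in the remaining 10 alternatives.

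Fos, at 4.97 times the vehicle mean, had a log2 difference of 1.40 ± 0.37 and an adjusted p of 0.0894 in limma. It reached 1 FPKM in 3 libraries only with the Cancer-labelled library counted, so its direction is fixed by the filter and its p carries no weight. Over the alternatives in which it was tested the adjusted p in limma ran from 0.0219 to 0.273 and was under 0.05 in 4. Ier2 measured 2.30 times the vehicle mean (log2 difference 1.11 ± 0.37, adjusted p = 0.171 in limma) and Dusp1 2.73 times (1.31 ± 0.62, adjusted p = 0.329). Egr1 was at 2.49 times the mean with a wide standard error (1.30 ± 1.02), taken from the spread of the MSC and vehicle libraries together. For Jun the log2 difference was 0.86 ± 0.62, for Atf3 0.74 ± 0.62, for Zfp36 0.63 ± 0.41 and for Junb 0.44 ± 0.46 (SE), with adjusted p from 0.474 to 0.660 in limma. Leaving out vehicle replicate 4 gave 0.82 for Egr1, 0.34 for Zfp36 and 0.22 for Junb, and leaving out vehicle replicate 1 gave 0.72 for Junb. Fosb stayed below the filter and was not tested in the reported fit (log2 difference 0.46). It measured 0.407 FPKM, against at most 0.0579 FPKM in any other library. Without the filter on low values Fosb was tested and was the 1 member called in limma. With libraries scaled to an equal FPKM sum it was tested and not called (log2 difference 0.94).

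The median log2 difference of all genes tested was 0.25, and 0.19 with the filter on the other 6 libraries. All 10 members had a positive difference under every alternative run, with a median of 0.99, which is 0.74 above that of all genes. Relative to it, Ier3 was at 1.49, Fos at 1.15, Dusp1 at 1.06 and Egr1 at 1.05, while Junb was at 0.19 and Fosb at 0.22. The library lay above all 3 vehicle libraries for 9 of the 10 genes, against 56.2% of all genes tested, and below them for 0, against 10.6%. It lay above all 6 other libraries for 4 of 10, against 46.5%, a share near the background. At an unadjusted p under 0.05, 3 of the 9 tested members were higher (Ier3, Fos and Ier2), against 15.4% of all genes tested. With the filter on the other 6 libraries it was 2 of 8, against 916 of 10534 genes.

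Bile duct markers were high in that library. They summed to 514 FPKM, against 47.9 to 165 FPKM in the vehicle libraries and 31.2 to 144 FPKM in the MSC libraries, and no marker was at 0 in any library. Most of each sum was Spp1, at 453.5 FPKM there, 45.1 to 157.8 FPKM in the vehicle libraries and 28.65 to 139.2 FPKM in the MSC libraries. Of the 6 markers, 4 were tested only through that library and carry no test here, and neither of the remaining 2 was called with the filter on the other 6 libraries. Krt19, a keratin of bile duct cells, measured 24.4 FPKM there and at most 1.11 FPKM elsewhere. Stellate cell and myofibroblast markers summed to 41.3 FPKM, against 14.8 to 38.3 FPKM in the vehicle libraries, with 6 markers higher and 2 lower. B and plasma cell markers summed to 11.95 FPKM against 3.604 to 4.94, with 3 higher and 3 lower. T and NK cell markers summed to 4.55 FPKM against 1.22 to 3.155, with 7 higher and 1 lower. Neutrophil markers, with 1 higher and 6 lower, summed to 6.545 FPKM, below the vehicle range of 10.97 to 26.82. Macrophage, endothelial and red cell sums lay inside the vehicle range and the hepatocyte sum, 31150 FPKM, above it. The part of these cells in the values of Ier3 and the other members was not tested.

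Other immediate early genes were read from lists chosen by function. Of 20 listed transcription factors of this class, 14 had a positive and 6 a negative difference for MSC minus vehicle, with a median of 0.17. None of the 13 tested passed in limma, and 2 had an unadjusted p under 0.05, against 5.59% of all genes tested. The lowest p was that of Maff, a small Maf protein, at 6.71 ± 2.41 against 3.16 ± 1.74 FPKM (SD, n = 3 each; adjusted p = 0.741 in limma). Csrnp1, a nuclear protein induced by axin, measured 3.06 ± 0.941 against 1.88 ± 0.287 FPKM, and its MSC and vehicle libraries did not overlap, as was so for 10% of all genes tested. In the Cancer-labelled library 18 of the 20 had a positive and 2 a negative difference, with a median of 0.64 beside 0.25 for all genes tested. None of 15 tested passed in limma, and 4 were higher at an unadjusted p under 0.05, against 15.4% of all genes tested. Myc, the growth-associated transcription factor, was at 10.5 FPKM there against 3.55 ± 0.620 (SD, n = 3; adjusted p = 0.1096 in limma). Nr4a1, an orphan nuclear receptor, was at 1.68 against 0.500 ± 0.261 FPKM (SD, n = 3). It was among the 4 genes counted above and was tested only through that library. Its direction is therefore fixed by the filter, and its p carries no weight.

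Of 26 tested genes in the list of other signalling and regulatory immediate early genes, 6 passed as higher and 1 as lower in limma in the Cancer-labelled library, beside 3.98% and 0.188% of all genes tested. Their median difference was 0.67. Thbs1 and Hbegf were tested only through that library. With the filter on the other 6 libraries, 1 of 23 passed, Ccn1 (adjusted p = 0.0409 in limma), while Gadd45b was at 0.0578, Ccn2 at 0.0645, Rhob at 0.123 and Plk3 at 0.157. Ccn1 and Ccn2, matricellular proteins known as targets of YAP and of serum response factor, measured 16.8 FPKM against 2.18 ± 0.619 and 31.1 FPKM against 4.97 ± 2.74 (SD, n = 3; adjusted p = 0.00847 and 0.0176 in limma). Gadd45b, a stress sensor, measured 15.4 against 3.34 ± 0.842 FPKM (SD, n = 3; adjusted p = 0.0147 in limma), and Thbs1, thrombospondin 1, was at 2.54 against 0.480 ± 0.143 FPKM (SD, n = 3). The other calls, named here after their values were seen, were Hbegf (1.15 FPKM, at most 0.167 in the vehicle libraries) and Rhob (43.9 FPKM, at most 17.4) as higher and Plk3 (24.5 FPKM, at least 47.2) as lower. For MSC minus vehicle 13 of the 29 listed genes had a positive and 16 a negative difference (median -0.01). None of the 23 tested passed in limma, and 2 had an unadjusted p under 0.05, against 5.59% of all genes tested.

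Genes upstream of the response were read next. Among 29 listed MAP kinase cascade members and nuclear effectors, the median difference was -0.01 for MSC minus vehicle and 0.27 for the Cancer-labelled library, the latter beside 0.25 for all genes tested. None passed in limma in either comparison, of 26 and 28 tested, with 2 and 1 at an unadjusted p under 0.05. Over all genes tested, 5.59% had such a p for MSC minus vehicle, and 15.4% were higher at it in the Cancer-labelled library. The gene in the Cancer-labelled count was Mrtfa, at 2.065 against 0.93 ± 0.13 FPKM in the vehicle libraries (SD, n = 3). It was tested only through the Cancer-labelled library, so its p carries no weight. Srf, the serum response factor, was at 2.29 ± 0.537 FPKM with MSC, at 2.13 ± 0.174 FPKM with vehicle (SD, n = 3 each) and at 3.53 FPKM in the Cancer-labelled library. Map2k6, a kinase that activates p38, measured 1.72 ± 0.222 against 0.740 ± 0.600 FPKM and Mapk14, p38 itself, 16.7 ± 2.62 against 22.7 ± 1.11 (SD, n = 3 each). The groups did not overlap for either, as was so for 10% of all genes tested, and the adjusted p were 0.720 and 0.822 in limma. The partners of AP-1 gave 0 calls in limma in both comparisons, of 7 and 8 tested. In each, 1 had an unadjusted p under 0.05, against the same 5.59% and 15.4% of all genes tested. The gene in the Cancer-labelled count was Jdp2, at 2.74 against 0.74 ± 0.17 FPKM in the vehicle libraries (SD, n = 3). It was tested only through the Cancer-labelled library, so its p carries no weight. Jund, the third Jun protein, measured 38.1 ± 13.5 against 25.1 ± 8.16 FPKM (SD, n = 3 each), and the Cancer-labelled library held 46.9 FPKM.

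Among 16 other MAP kinase phosphatases and feedback inhibitors, 1 of 12 tested passed in limma in the Cancer-labelled library, beside 3.98% of all genes tested. It was Spry1, a Sprouty inhibitor of receptor signalling, at 5.64 against 1.70 ± 0.180 FPKM (SD, n = 3; adjusted p = 0.0174 in limma, and 0.0644 with the filter on the other 6 libraries). For MSC minus vehicle, 0 of 9 passed in limma and 0 had an unadjusted p under 0.05. Of 12 transcripts known to be bound by tristetraprolin, a list that includes Ier3, 6 were tested and none passed for MSC minus vehicle in limma, with 0 at an unadjusted p under 0.05. Cxcl1, a neutrophil-attracting chemokine, measured 20.9 ± 18.6 against 11.8 ± 10.2 FPKM (SD, n = 3 each), a wide overlap. In the Cancer-labelled library 2 of 6 passed, beside 3.98% of all genes tested. They were Ier3 and Ccl2, a monocyte-attracting chemokine at 13.5 against 0.905 ± 0.414 FPKM (SD, n = 3; adjusted p = 0.0174 in limma, and 0.0665 with the filter on the other 6 libraries). Of 12 AP-1 target genes, 8 were tested and 0 passed for MSC minus vehicle in limma. At an unadjusted p under 0.05 the count was 1, against 5.59% of all genes tested. In the Cancer-labelled library 2 of 9 passed, beside 3.98% of all genes tested: Ccl2 and Plaur, the urokinase receptor, at 2.35 against 0.335 ± 0.0538 FPKM (SD, n = 3), which was tested only through that library. With the filter on the other 6 libraries, none of these 3 lists had a call in limma, of 9, 6 and 8 tested. At an unadjusted p under 0.05 there, 2, 2 and 5 were higher, against 916 of all 10534 genes. Hmox1, haem oxygenase, had the lowest p of this list for MSC minus vehicle, at 9.38 ± 4.55 against 28.0 ± 17.7 FPKM (SD, n = 3 each; adjusted p = 0.688 in limma). Red cell transcripts differed in the same direction, 6 of 6 lower with a median of -1.78 and 0 called, with sums of 105 to 224 FPKM against 210 to 903 FPKM, and their part in the Hmox1 values was not tested.

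**Figure D4:**
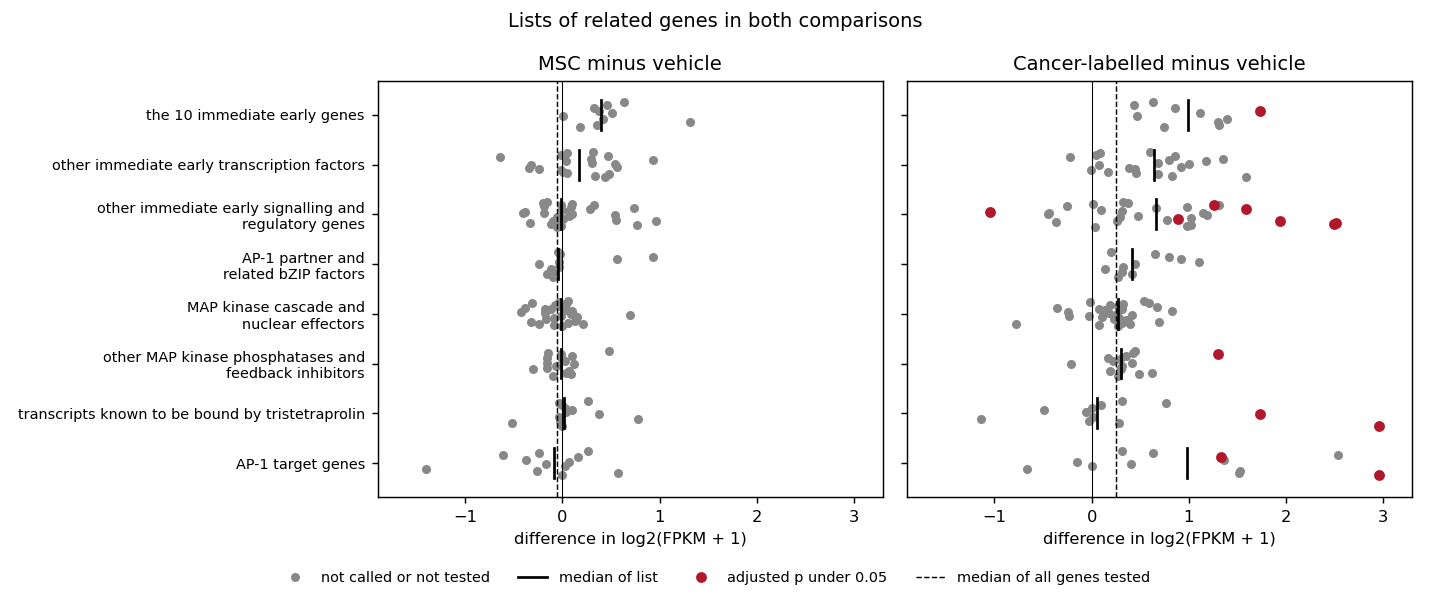
Difference in log2(FPKM + 1) (x axis) of every listed gene, by list (rows), for MSC minus vehicle (left) and the Cancer-labelled library minus vehicle (right). Red points passed at an adjusted p under 0.05, solid ticks are list medians and dashed lines the median of all genes tested; the 10 genes have medians of 0.40 and 0.99, and red points appear on the right only, where a gene could be tested through a high value in the Cancer-labelled library alone. Some genes stand in more than 1 list.

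Genes whose profile was nearest to that of a member were found by the root-mean-square difference of log2(FPKM + 1), centred over the 7 libraries, among protein-coding genes with a mean of at least 2 FPKM, predicted genes named Gm or Rik left out. Nearest to Fos, among 7367 candidates, were Esam, an endothelial adhesion molecule, at 0.23, Klf2, a flow-responsive factor of endothelium, at 0.25, and Bex3 at 0.25, beside a median of 0.55 over candidates. Klf2 also stands in the list of other immediate early transcription factors. Esam measured 3.47, 0.955 and 3.18 FPKM in the MSC libraries, 2.45, 1.19 and 2.18 FPKM in the vehicle libraries and 4.22 FPKM in the Cancer-labelled library. Like Fos, it was lowest in MSC replicate 1 and highest in the Cancer-labelled library. Nearest to Zfp36 were Hdac11, a histone deacetylase, at 0.15, Edem2, a factor of protein quality control in the endoplasmic reticulum, at 0.15, and Pold2, a subunit of DNA polymerase delta, at 0.18, beside a median of 0.49. Nearest to Atf3 were Ccdc120 at 0.27, Jun, itself a member, at 0.29 and Irf2bp2, a transcriptional corepressor, at 0.29, beside a median of 0.58.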

How the data were processed

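The authors deposited FPKM values for every library as columns of a merged gene table. The submitters' processing notes name HISAT2 2.2.1, StringTie 2.1.6, FastQC 0.11.9 and cutadapt 1.9, with the builds GRCm38 and mm10, and give no roles. No pair of libraries was identical (0 pairs).

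Values were analysed as log2(FPKM + 1), which understates changes of low genes. For MSC minus vehicle, limma (lmFit, eBayes with trend; Benjamini-Hochberg, threshold 0.05) was run on genes reaching 1 FPKM in 3 or more of the 6 libraries. For the Cancer-labelled library, limma fitted the 3 groups jointly, and a gene entered by reaching 1 FPKM there or in any 3 of the 7 libraries. Over 10534 and 12265 genes, 8 and 9 of the 10 members could be tested.

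The members and gene lists were chosen with earlier results of these data known, so lists are described by counts and medians without a test of their own. From each list the text names called genes (at most 4) or, where fewer than 3 were called, genes of lowest p, of which some are not printed. Alternatives covered the pseudocount, the filter, scaling, the variance model, which group held the Cancer-labelled library, and single libraries left out; counting positive differences under them, and a filter on the 6 other libraries for the Cancer-labelled comparison, were added after seeing the data. The steps were tested on simulated data. Promoters came from RefSeq (GRCm38.p6). Software was R 4.3.3 with limma 3.58.1, and matplotlib 3.10.9 with pandas 2.3.3.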

Additional observations from a re-analysis of the deposited data

How the results depend on the processing

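For MSC minus vehicle, 0 of the 10 members passed under all 15 alternatives, and the count over all genes ran from 1 to 8 across single libraries left out and was 1 when the Cancer-labelled library was counted as a vehicle sample, against 2 as reported. The number of members with a positive difference was 6 without MSC replicate 0 and 9 or 10 without any other single library. Signs turned for members with small differences: with that library counted so, Fosb was at -0.10, Ier3 at -0.0589 and Atf3 at -0.0057. Across single libraries left out, the difference ran from -0.0086 to 0.0342 for Fosb, from -0.19 to 0.79 for Jun, from -0.30 to 0.62 for Atf3 and from -0.21 to 0.64 for Dusp1. Without MSC replicate 0 the values were -0.19 for Jun, -0.30 for Atf3, -0.21 for Dusp1 and -0.0086 for Fosb, which was at -0.0023 without vehicle replicate 3. For the Cancer-labelled library the count over all genes, 511 as reported, was 13 at a pseudocount of 0.1, 838 at 5, 1035 without the filter, 290 with quantile normalization and 17 with the filter on the other 6 libraries (added after seeing the data), and ran from 267 to 631 without single libraries (267 without vehicle replicate 3, 284 without vehicle replicate 4). The number of members called, 1 as reported, was 0 with that filter, at a pseudocount of 0.1, with libraries centred on their medians and with quantile normalization. It was 2 at a pseudocount of 5, with mitochondrially encoded genes removed and in the fit of the 4 vehicle libraries, and from 0 to 2 without single libraries. The causes were not tested. No paired analysis was possible because the groups share only 1 replicate number. Depth is unknown, so counting error cannot be given for low genes such as Fosb and Fos.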

Other observations

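Heat shock genes encode chaperones. Of 11 tested, 9 had a negative difference for MSC minus vehicle, where 39.9% of all genes tested had a positive one. Their median log2 difference was -0.47, beside -0.05 for all genes tested. None passed in limma, and 6 were lower at an unadjusted p under 0.05, against 5.59% of all genes tested in either direction. In the Cancer-labelled library 9 of 11 had a positive difference (median 0.40, beside 0.25 for all genes tested). Of the 11, 1 passed as higher, beside 3.98% of all genes tested. It was Hspa1a, an inducible HSP70 gene chosen after its values were seen. It measured 3.84 FPKM there, 1.13, 1.25 and 1.13 FPKM in the vehicle libraries and 0.711, 0.275 and 0.911 FPKM in the MSC libraries (adjusted p = 0.0422 in limma for the Cancer-labelled library, and 0.159 with a filter on the other 6 libraries).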
